A study of Mus musculus with 10 samples.

Results

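The genes described here encode the proteins of the cytosolic ribosome, and the measurement is how open the chromatin was at their ends in nuclei cut from mouse lung and brain sections. A peak was counted as a ribosomal protein (RP) gene peak when its centre lay within 1000 bp of an end of a protein-coding gene with an Rpl or Rps symbol and no end of another protein-coding gene was nearer. Of 37511 nuclear peaks, 91 met this rule, which is 0.243%, and they belonged to 69 of the 81 genes with such a symbol. The large subunit gave 59 peaks at 42 genes and the small subunit 32 peaks at 27 genes. One peak was found at 49 of the genes, 2 peaks at 18, and 3 peaks at Rpl7 and at Rpl5. No measured value entered the choice of members.

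All libraries came from wild-type C57BL/6J mice, an inbred laboratory strain, and from fresh frozen sections in which the transposase Tn5 had cut accessible DNA in place before capture. Lung gave 3 libraries of 50 and 3 of 200 nuclei, and brain 2 libraries of each, where 50 stands for nuclei captured one at a time and 200 for 10 captured areas of roughly 20 nuclei each. The number of nuclei and the way of capture therefore changed together and cannot be told apart. The labels call the repeats technical and give neither the number nor the age of the mice, so every p-value below measures the spread between libraries, which may be technical. A captured pool mixes cell types, and fewer cells with an open site cannot be told apart from less opening in each cell.

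A ribosome of the cytosol has a large subunit, which joins amino acids, and a small subunit, which reads the messenger RNA. Every dividing or protein-making cell transcribes the RP genes, mostly from short, nucleosome-poor promoters, and their messenger RNAs are among the most abundant of most tissues. Many of these promoters start transcription within a run of pyrimidines, the TCT initiator, which gives the messenger RNA the terminal oligopyrimidine (TOP) tract through which mTOR signalling controls its translation. Binding sites of ETS factors such as GABPA, and of YY1 and SP1, are known from RP promoters.

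The sequences below show the best-known of these features where it lay inside a measured peak. Of 51 transcription starts that the RefSeq promoter table (build GRCm38.p6, the same assembly as mm10) lists inside an RP gene peak, 7 carried the TCT core, taken as CTTTCC or CTTTTC on the sense strand within 10 bases of the start. That is 13.7%, against 1.43% of the 9807 listed starts of any gene that lay inside a peak and 1.46% of all 32851 listed starts. Each line runs 5′ to 3′ on the gene's strand from 60 bases before the start to the 20th base from it, and capitals mark the TCT core and the ETS sequence CCGGAAG or its reverse complement.
Rpl27a, chr7:109519135-109519214, + strand: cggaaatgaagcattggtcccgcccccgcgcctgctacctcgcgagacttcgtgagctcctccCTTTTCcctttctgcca
Rpl28, chr7:4792905-4792984, + strand: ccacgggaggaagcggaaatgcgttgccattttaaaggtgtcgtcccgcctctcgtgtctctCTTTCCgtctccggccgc
Rpl34, chr3:130730318-130730397, - strand: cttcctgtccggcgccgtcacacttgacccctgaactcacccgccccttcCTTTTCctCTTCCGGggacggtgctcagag
Rpl35, chr2:39005112-39005191, - strand: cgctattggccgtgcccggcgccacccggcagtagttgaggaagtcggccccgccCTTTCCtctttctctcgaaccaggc
Rpl35a, chr16:33056422-33056501, + strand: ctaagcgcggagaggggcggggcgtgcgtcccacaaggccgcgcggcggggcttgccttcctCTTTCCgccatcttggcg
Rpl38, chr11:114668520-114668599, + strand: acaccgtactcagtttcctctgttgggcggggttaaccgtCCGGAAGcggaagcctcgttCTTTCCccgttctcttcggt
Rps10, chr17:27635225-27635304, - strand: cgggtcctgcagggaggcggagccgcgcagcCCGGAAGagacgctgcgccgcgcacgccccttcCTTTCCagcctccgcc
For contrast, the promoter of Rps21, which had the highest read density of all RP gene peaks, carried an ETS match and no TCT core, and the promoter of Rpl13a, the next in density, carried no ETS match in this window and the letters CTTTCC only past the limit of 10 bases, beginning at the 10th base from the start.
Rps21, chr2:180257319-180257398, + strand: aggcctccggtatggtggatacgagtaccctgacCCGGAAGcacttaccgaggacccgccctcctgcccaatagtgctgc
Rpl13a, chr7:45128726-45128805, - strand: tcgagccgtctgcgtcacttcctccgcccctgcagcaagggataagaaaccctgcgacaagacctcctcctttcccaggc

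Other motifs were counted on both strands over the 300 bases listed for each start. The ETS sequence was found at 33.3% of the 51 RP starts inside a member peak, against 21.6% of all starts inside a peak and 8.86% of all starts. The YY1 sequence AAGATGGC stood at 9.8% of these RP starts, against 5.22% of all starts inside a peak. For the SP1 sequence GGGCGG the order was the other way, with 62.7% against 70.1%, and the NRF1 sequence GCGCATGC was at 5.88% against 6.47%. The E-box CACGTG was found at 9.8% against 11.3%, TATAAA at 5.88% against 5.39%, and CCAAT at 39.2% against 40.8%. The median share of C and T in the 15 bases around the start was 53.3% at the RP starts and 46.7% at all starts inside a peak. These matches are letters in a window and not measured binding, and several genes contributed more than 1 listed start.

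Median levels with and without a match were close. The 7 peaks over a start with a TCT core had a median level of 60.3 RPM, the unit of all levels below, in which a count is scaled to 1000000 nuclear reads of its library. For the 37 other peaks over a listed start it was 62.7 RPM. The 16 peaks with an ETS match had a median of 54.8 RPM and the 28 without one 63.8 RPM. Among the TCT genes, Rpl27a, a large-subunit protein, had the highest level, 136 ± 32.8 RPM in lung (SD, n = 6) and 144 ± 13.2 in brain (SD, n = 4). Rpl35a, also of the large subunit, had the lowest, with 9.96 ± 5.47 RPM in lung and 31.0 ± 15.2 in brain. Rpl38, whose loss causes the Tail-short mouse, had 34.2 ± 24.8 RPM in lung and 37.4 ± 11.6 in brain.

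RP gene peaks were wide and high compared with other peaks at gene ends. Their median width was 306 bp, against 243 bp for the 13819 peaks within 1000 bp of an end of any protein-coding gene (gene-end peaks) and 164 bp for all nuclear peaks. Their median level, over the means of the 4 groups, was 44.9 RPM, against 25.1 RPM at gene ends and 13.2 RPM over all nuclear peaks. Per length the gap was smaller, with a median density of 13.7 RPM per 100 bp against 10.8 at gene ends and 8.49 over all nuclear peaks. The high level was not particular to RP genes. By the same rule, peaks at listed translation genes had a median level of 41.9 RPM and those at ribosome biogenesis genes 43.5 RPM. Peaks at genes of the mitochondrial ribosome had 28.9 RPM. Peaks of the small subunit had a median level of 58.9 RPM and a density of 16.5 RPM per 100 bp, and peaks of the large subunit 35.8 RPM and 12.3 RPM per 100 bp. Their median widths were 369 and 233 bp, and subunit and width were not separated. No test was made of these medians, because the peaks were called on these same libraries.

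Most of the signal lay over the transcription start. Starts were listed for 50 of the 69 genes, with 63 of the peaks, and 44 of those peaks, at 44 genes, covered a listed start. Their centres lay at a median of -22 bp, that is upstream of the nearest listed start, between -320 and 107 bp. They had a median width of 363 bp, a median level of 61.5 RPM and a density of 18.2 RPM per 100 bp. The 19 peaks that covered no listed start had a median width of 114 bp, a level of 9.66 RPM and a density of 6.66 RPM per 100 bp. Of these, 14 lay 98 to 418 bp downstream, 3 lay upstream within 500 bp and 2 lay farther away. One of the farther 2 was at the other end of Rps19.

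**Figure D1:**
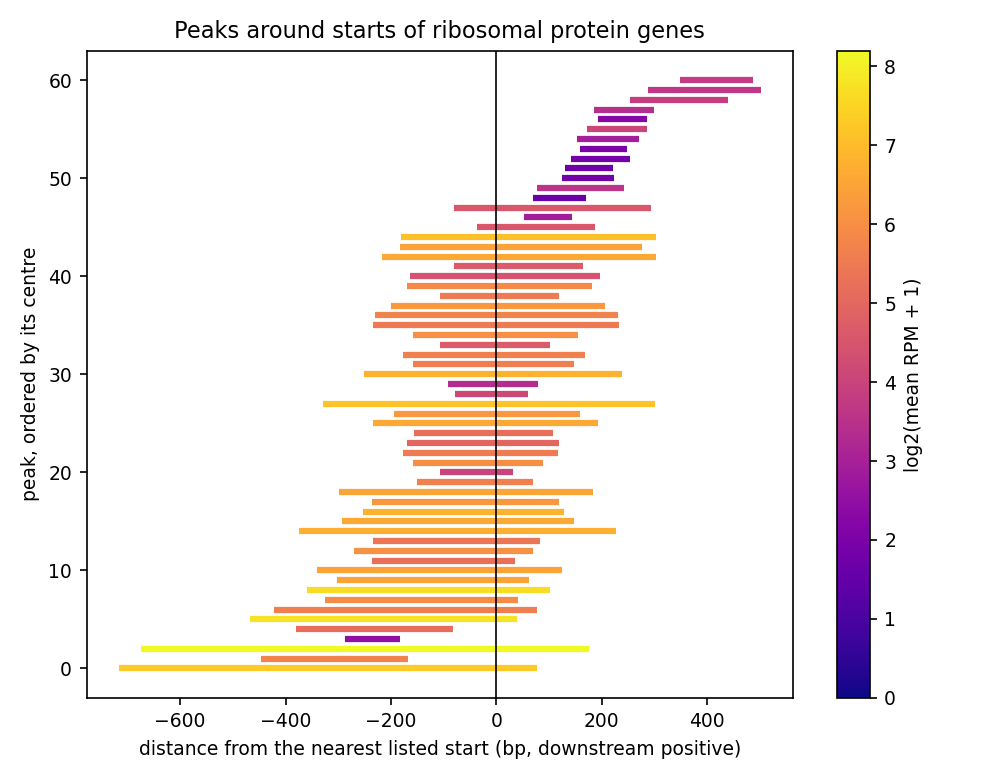
Extent of the RP gene peaks centred within 500 bp of a listed start (x axis: distance from the start in bp, downstream positive; y axis: peaks ordered by their centre), with colour giving the mean level on a log2(RPM + 1) scale. The 44 peaks over the start are wide and mostly high, and the 14 peaks downstream of it are narrow and low.

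The depth behind these values differed between libraries. Reads in nuclear peaks ranged from 319307 to 3075377 per library, and reads in the 91 RP gene peaks from 1726 to 15162. Mitochondrial DNA took 24.7% to 58.0% of the reads in lung libraries and 93.4% to 95.8% in brain libraries. The 2 peaks on the Y chromosome held 62 reads in the brain libraries and 0 in the lung libraries. In every comparison of brain with lung below, tissue therefore cannot be told apart from the animals and their sex. In lung at 50 nuclei, 87, 72 and 62 of the 91 peaks held at least 1 read in replicates 1, 2 and 3, while the other libraries held reads in 84 to 89. The low counts of replicates 2 and 3 were not particular to RP genes: 69.9% and 66.8% of gene-end peaks held a read there, against 92.4% to 98.0% in the other libraries. With every library thinned to 319307 nuclear reads, the 3 lung libraries of 50 nuclei held reads in 81, 72 and 61 RP gene peaks, those of 200 nuclei in 79, 79 and 68, and the brain libraries in 83 to 89. The median coefficient of variation in lung at 200 nuclei was 15.8% for peaks at or over the median level and 34.4% for those under it. At 50 nuclei it was 39.1% and 121%. Intervals and SDs cover the spread of counts between libraries, and reads without molecular identifiers are not independent molecules.

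**Figure D2:**
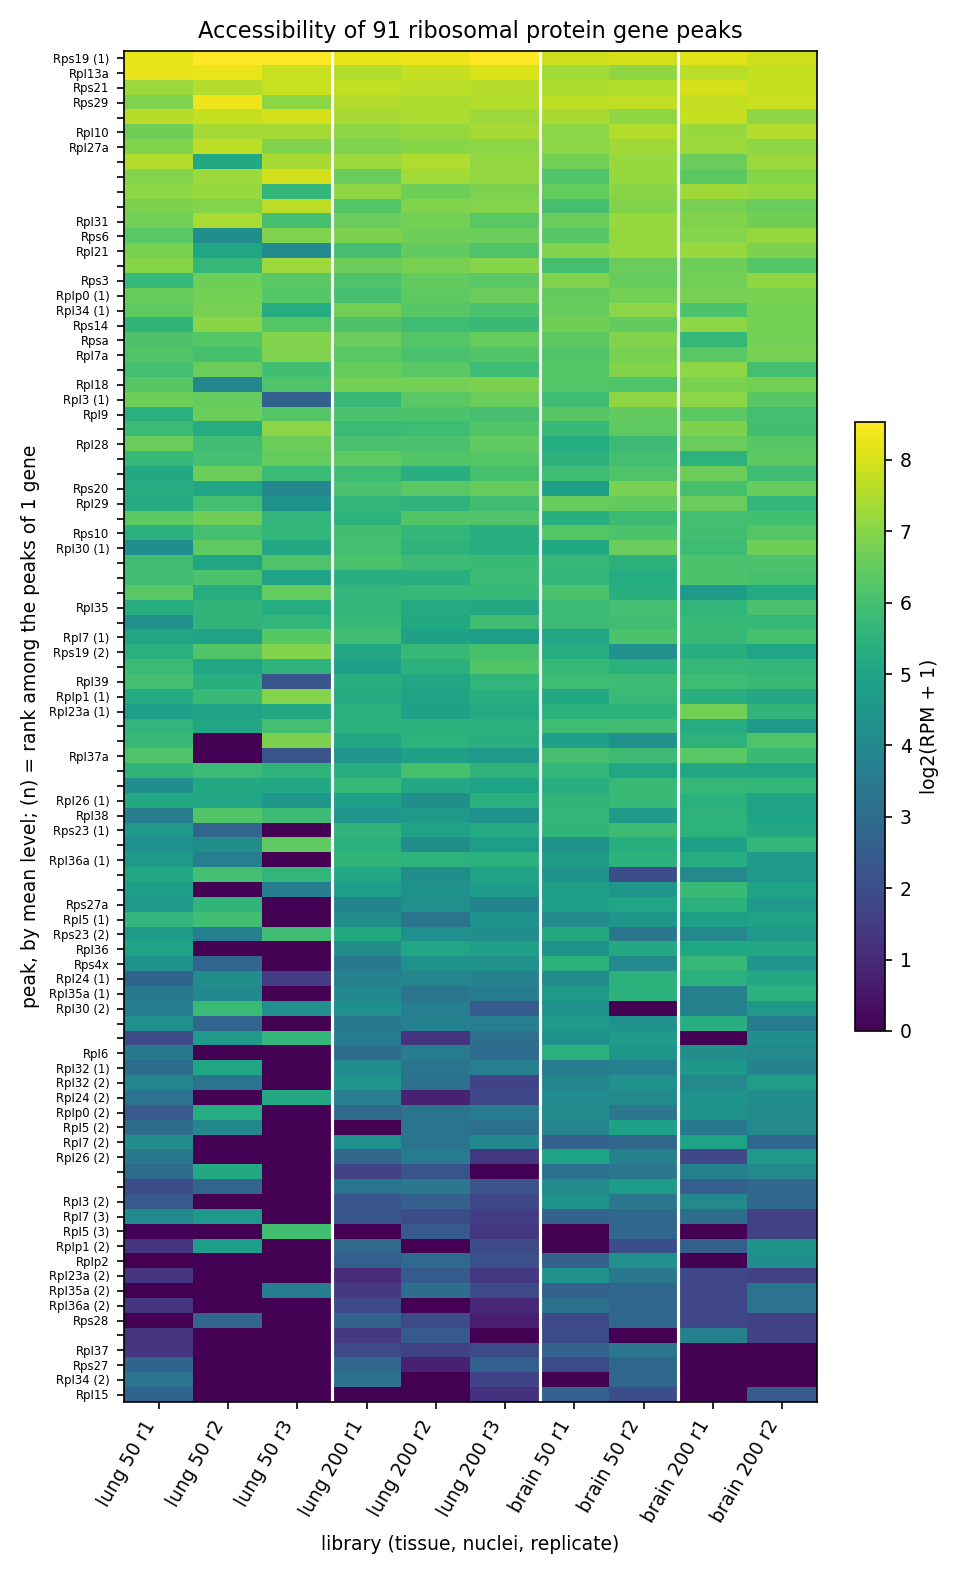
Level of each of the 91 RP gene peaks (rows, by mean level, labelled where the gene is named in the text) in each of the 10 libraries (columns, by tissue, number of nuclei and replicate) as log2(RPM + 1). The upper rows are alike across all 10 columns, and the dark cells, peaks with no read, gather in the lower rows and in lung 50-nuclei replicates 2 and 3.

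Among the 6 peaks with the highest level were those of Rps19, Rpl13a, Rps21, Rps29 and Rpl10, with all 10 libraries above 100 RPM at each of these. Rps19, a small-subunit protein mutated in Diamond-Blackfan anaemia, had the widest peak, 849 bp at chr7:24883919-24884768, which covered its start. Its level was 293, 364 and 369 RPM in lung at 50 nuclei, 294, 319 and 367 in lung at 200 nuclei, 233 and 254 in brain at 50 nuclei and 283 and 234 in brain at 200 nuclei. All 4 brain libraries lay below all 6 lung libraries, and the fitted log2 fold of brain against lung was -0.40 ± 0.20 (SE; edgeR adjusted p = 0.208). At the other end of the gene, a 458-bp peak had 64.1 ± 31.2 RPM in lung and 32.4 ± 9.66 in brain (log2 fold -0.92 ± 0.41, edgeR adjusted p = 0.147), and there the groups overlapped.

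Rpl13a, a large-subunit protein also known from the GAIT complex that silences inflammatory messenger RNAs, had 303, 308 and 225 RPM in lung at 50 nuclei and 186, 217 and 266 at 200 nuclei. The brain libraries had 161 and 138 RPM at 50 nuclei and 198 and 217 at 200 nuclei. The lung values were higher on average but the ranges overlapped, and the log2 fold was -0.49 ± 0.22 (SE; edgeR adjusted p = 0.160). Without lung 50-nuclei replicate 3 this peak passed the threshold as higher in lung, with a log2 fold of -0.58 and an adjusted p of 0.0362.

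Rps21, a small-subunit protein, had 195 ± 25.8 RPM in lung (SD, n = 6) and 209 ± 34.7 in brain (SD, n = 4), a log2 fold of 0.11 with a 95% interval from -0.33 to 0.54. Rps29, a small zinc-binding protein of the same subunit, had 118, 320 and 135 RPM in lung at 50 nuclei and 187, 179 and 185 at 200 nuclei. In brain it had 205 and 207 RPM at 50 nuclei and 213 and 228 at 200 nuclei. The lung libraries of 50 nuclei thus lay on either side of all the others, and the 95% interval of the log2 fold ran from -0.26 to 0.71.

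The genes Rpl10, Rps4x, Rpl39 and Rpl36a lie on the X chromosome. Rpl10, which joins the large subunit late in its assembly, had 102, 167 and 164 RPM in lung at 50 nuclei, 133, 145 and 164 at 200 nuclei, and 131, 185, 148 and 191 in the 4 brain libraries. The ranges overlapped, and the 95% interval of the log2 fold ran from -0.29 to 0.68. Rps4x, a small-subunit protein, had 12.6 ± 8.58 RPM in lung and 32.8 ± 16.8 in brain, a log2 fold of 1.37 ± 0.69 (SE; edgeR adjusted p = 0.21). Without lung 50-nuclei replicate 1 its fold rose to 2.48 with an adjusted p of 0.0281. Rpl39, at the exit of the peptide tunnel, had 38.2 ± 20.0 RPM in lung and 56.3 ± 1.82 in brain, and the wider of the Rpl36a peaks 28.3 ± 19.5 and 32.4 ± 9.92.

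The stalk of the large subunit, which recruits the elongation factors, is made of Rplp0, Rplp1 and Rplp2. At the start of Rplp0 a 428-bp peak had 92.4, 106 and 76.7 RPM in lung at 50 nuclei, 63.7, 84.9 and 96.6 at 200 nuclei, and 87.6, 106, 108 and 112 in the brain libraries. These ranges overlapped, and the 95% interval of the log2 fold ran from -0.30 to 0.83. The 275-bp peak of Rplp1 had 53.1 ± 34.7 RPM in lung and 40.8 ± 8.64 in brain, where the lung SD came mainly from 122 RPM in lung 50-nuclei replicate 3. Rplp2 was represented by a 91-bp peak 98 bp downstream of its start and 184 bp from an end of Pidd1. It held 0 reads in all 3 lung libraries of 50 nuclei and in brain 200-nuclei replicate 1, 3.25 to 6.59 RPM in lung at 200 nuclei, and 5.47, 18.8 and 17.2 RPM in the other brain libraries. Its fitted log2 fold, 3.61 ± 1.36, was the highest of all RP gene peaks and depends on the prior count of the fit, since a whole group was at 0 (edgeR adjusted p = 0.0844).

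Among the other members chosen for their function, Rpsa, the small-subunit protein known as the laminin receptor, had 87.4 ± 18.1 RPM in lung and 89.1 ± 30.1 in brain, with a log2 fold of 0.04 ± 0.30. Rps6, the target of the S6 kinases, had 79.6, 17.6 and 117 RPM in lung at 50 nuclei, 115, 99.6 and 97.5 at 200 nuclei, and 79.4, 144, 125 and 144 in brain. The low library was lung 50-nuclei replicate 2, and the log2 fold was 0.50 with a 95% interval from -0.14 to 1.13. Rps27a, made as a fusion with ubiquitin, had 19.1 ± 15.6 RPM in lung and 31.2 ± 8.22 in brain. Rpl32, a common reference gene, had 2 low peaks, with 12.8 ± 11.03 and 9.07 ± 7.74 RPM in lung and 14.7 ± 5.29 and 18.3 ± 5.42 in brain.

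The 6 lowest peaks, those of Rpl15, Rpl34, Rps27, Rpl37 and Rps28 among them, were 90 to 112 bp wide and had levels of 2.19 to 2.96 RPM. At each of them at least 2 libraries held no read. At Rpl15, Rps27, Rpl37 and Rps28 the peak was the only member of its gene and covered no listed start. Another gene had an end 214 to 270 bp from its centre. A peak nearer to that other end was not counted as a member, so these levels do not describe the starts of these genes. Rpl34 shows the contrast within 1 gene: its 483-bp peak over the start had 80.5 ± 25.9 RPM in lung and 99.9 ± 26.7 in brain, and a 91-bp peak 176 bp downstream had 3.19 ± 4.15 and 1.57 ± 3.13. Of the 21 peaks up to 150 bp wide, 14 and 18 held no read in lung 50-nuclei replicates 2 and 3, against 5 and 11 of the 70 wider ones.

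Brain was then compared with lung, averaged over both sizes, in 1 model of all 37466 peaks with at least 10 reads. All 91 RP gene peaks entered it, since the lowest held more reads than that. None of the 91 was called at an adjusted p under 0.05 (edgeR quasi-likelihood test, Benjamini-Hochberg), neither as higher in brain, where 5.76% of all peaks and 6.19% of gene-end peaks were called, nor as higher in lung, where 4.39% and 1.63% were. At an unadjusted p under 0.05, 11 RP gene peaks were higher in brain and 3 in lung, or 12.1% and 3.3%. The shares were 13.8% and 11.4% over all peaks and 17.3% and 4.69% over gene-end peaks. The DESeq2 Wald test called 4 as higher in brain (Rpl35a, Rpl24, Rpl6 and Rpl21) and 0 as higher in lung, out of 84 with an adjusted p, while it called 9.4% and 5.91% of all peaks. The median log2 fold of the RP gene peaks was 0.30, between 0.07 over all peaks and 0.37 over gene-end peaks, and 72.5% of them had a fold above 0, against 68.7% of gene-end peaks.

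**Figure D3:**
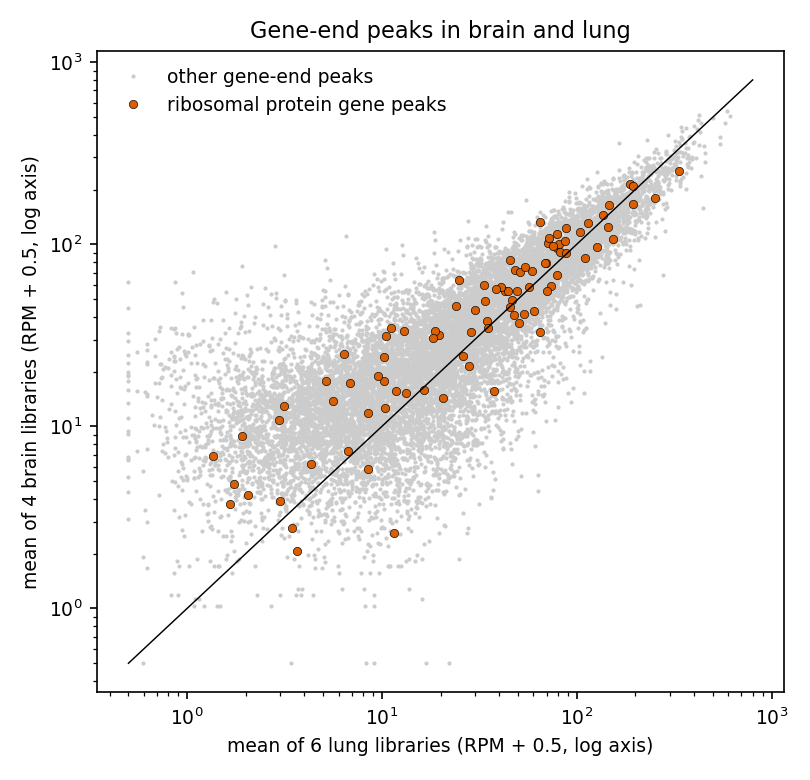
Mean level of each gene-end peak in the 6 lung libraries (x axis) and the 4 brain libraries (y axis), as RPM + 0.5 on log axes, with RP gene peaks in orange and the line of equal levels. The high RP gene peaks sit close to the line and none of the 91 was called, while the low ones spread to both sides of it, more of them above.

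A peak that misses the threshold has not been shown to be equal in both tissues, so the intervals matter here. For 24 of the 91 RP gene peaks, or 26.4%, the whole 95% interval of the tissue difference lay within 1 log2 unit of 0. The same held for 17.4% of gene-end peaks and 7.77% of all peaks. These 24 peaks, each at another gene, all had a level of at least 44.9 RPM. They include Rpl27a (interval from -0.39 to 0.61) and Rpl31 (from -0.38 to 0.75), which were picked as examples after their values were seen. The median half-width of the interval was 0.832 over RP gene peaks, 1.26 over gene-end peaks and 1.84 over all peaks.

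**Figure D4:**
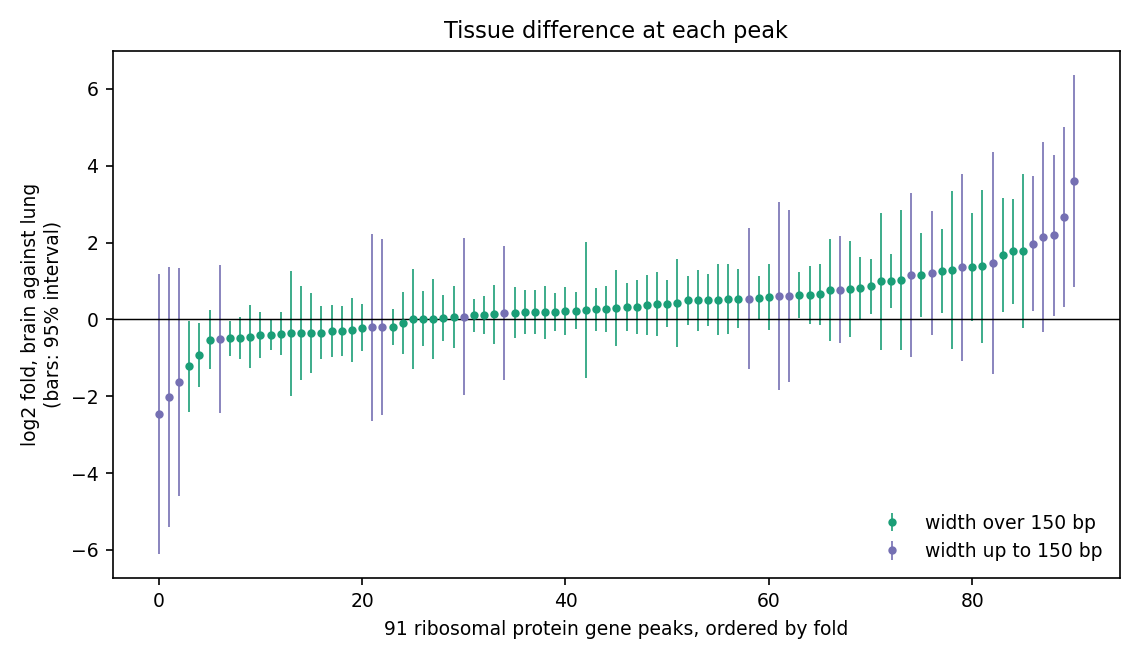
Fitted log2 fold of brain against lung at each of the 91 RP gene peaks, ordered by fold (points), with 95% intervals (bars), in green for peaks over 150 bp wide and in purple for narrower ones. Folds beyond 2 in either direction, and the longest bars, belong to narrow peaks.

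The spread of the folds followed the width of the peaks, and with it their level. The 21 peaks up to 150 bp wide had folds from -2.46 to 3.61 and a median SE of 1.13, and the 70 wider ones folds from -1.22 to 1.78 and a median SE of 0.38. The median folds of the narrow and the wider peaks were 0.62 and 0.26, and their median levels 6.55 and 54.7 RPM. Width and level were not separated. The 4 highest folds were at Rplp2, at the narrow peaks of Rpl36a and Rpl23a (2.67 ± 1.16 and 2.14 ± 1.22) and at the 103-bp peak of Rpl3 (2.19 ± 1.04). The lowest were at the 91-bp peak of Rpl34 (-2.46 ± 1.80), at Rps27 (-2.02 ± 1.67) and at the 118-bp peak of Rpl5 (-1.63 ± 1.46). At Rpl34 and Rps27 both brain libraries of 200 nuclei held no read, so the fitted fold depends on the prior count. The Rpl5 peak had 60.2 RPM in lung 50-nuclei replicate 3 and at most 6.26 RPM in any other library. The median fold was 0.39 over peaks of the large subunit, with 46 of 59 above 0, and 0.12 over peaks of the small subunit, with 20 of 32 above 0. Large-subunit peaks were narrower, with a median width of 233 bp against 369 bp, and subunit and width were not separated.

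At 4 RP gene peaks each brain library exceeded each lung library, where 8.4% of all peaks did so, and in 1 peak, the wide one of Rps19, all lay below, where 4.94% did. These were named after their values were seen. Of the 4 higher in brain, Rpl21, a large-subunit protein, had the highest level. Its 627-bp peak at chr5:146832759-146833386 had 112, 32.3 and 16.4 RPM in lung at 50 nuclei and 64.3, 87.8 and 71.5 at 200 nuclei. In brain it had 120 and 144 RPM at 50 nuclei and 148 and 114 at 200 nuclei, and the lowest brain value exceeded the highest lung value, in lung 50-nuclei replicate 1, only slightly. Its log2 fold of 1.00 ± 0.34 had the lowest adjusted p of the 91 peaks, 0.0549. It was called as higher in brain with nuclear totals (edgeR adjusted p = 0.0279), with DESeq2 size factors (0.0194), after thinning (0.0385), and without lung 50-nuclei replicate 1 (0.00117) or replicate 3 (0.0379). Rpl21 was not called with reads summed per gene (log2 fold 0.77, edgeR adjusted p = 0.231). Nor was it called with either other read filter, with replicate numbers as a block in the model, or without lung 50-nuclei replicate 2. The other 3 were a 139-bp peak of Rpl6 (at most 10.98 RPM in lung, 15.04 to 43.8 in brain), the 103-bp peak of Rpl3 (at most 5.12 RPM in lung, 6.44 to 19.2 in brain) and the 233-bp peak of Rpl23a (27.0 to 42.7 RPM in lung, 43.8 to 103 in brain).

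Which RP gene peaks were called depended on the lung libraries of 50 nuclei. Without replicate 1, 8 of the 90 tested were called as higher in brain (Rpl21, Rpl37a, Rpl6, Rpl36, Rps23, Rps4x, and 1 narrow peak each of Rpl3 and Rpl26), where 14.0% of all peaks were. Without replicate 2, 3 were (Rpl24, Rps14 and Rpl29), against 7.13% of all peaks. Without replicate 3, 2 were (Rpl24 and Rpl21), against 8.84%, and Rpl13a was called as higher in lung, against 8.65%. Without both replicates 2 and 3, 7 were called as higher in brain (Rpl38, Rpl30, Rpl35a, Rpl24, Rps14, Rps3 and Rpl29) and Rpl13a as higher in lung, where 9.95% and 12.4% of all peaks were. In each of these settings the share of all peaks called as higher in brain was also above the 5.76% with every library. Rpl24, known from the Belly spot and tail mouse, had 5.69, 17.6 and 1.83 RPM in lung at 50 nuclei, 12.2, 13.9 and 12.7 at 200 nuclei, and 16.4, 43.8, 42.6 and 34.4 in brain. Brain was higher in 3 of its 4 libraries than in every lung library, and the log2 fold was 1.77 ± 0.67 (SE; edgeR adjusted p = 0.0853). When the reads of a gene's peaks were summed to 1 value per gene, 0 of 69 RP genes were called as higher in brain and 3 as higher in lung (Rpl13a and Rps19 among them), with 3.87% and 4.18% of all 9963 genes called and a median log2 fold of 0.0196 over RP genes and 0.05 over all genes. That fit also took its TMM factors from gene-end reads only, and a gene with 1 peak, such as Rpl13a, kept its counts.

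As a sum, the RP gene peaks took a similar part of the nuclear reads in every library. The summed level was 4676, 5230 and 5164 RPM in lung at 50 nuclei and 4709, 4737 and 4930 at 200 nuclei. In brain it was 4723 and 5590 RPM at 50 nuclei and 5694 and 5470 at 200 nuclei. The means were 4908 ± 242 RPM in lung (SD, n = 6) and 5369 ± 440 in brain (SD, n = 4), with 1 brain library inside the lung range. Gene-end peaks as a whole took 57.3% ± 1.13 of nuclear reads in lung and 64.0% ± 2.03 in brain. As a share of the reads in gene-end peaks, the RP gene peaks held 0.857% ± 0.0522 in lung and 0.838% ± 0.0461 in brain, so that the tissue with the higher mean changed with the denominator.

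**Figure D5:**
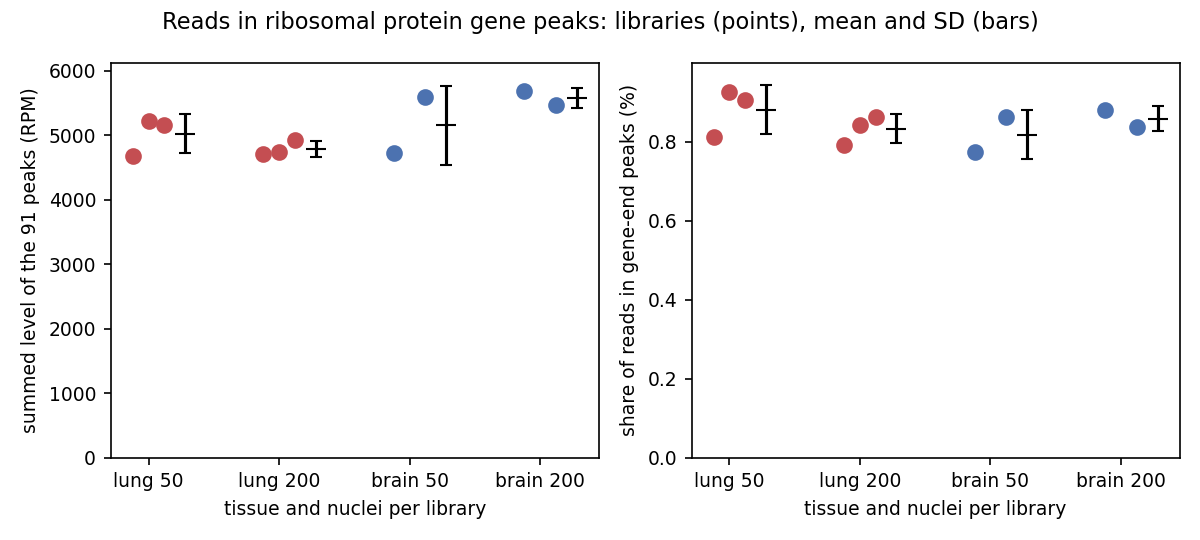
Summed level of the 91 RP gene peaks in RPM (left) and as a percentage of the reads in gene-end peaks (right) in the 4 groups, with libraries as points and the mean and SD as bars. On the left brain has the higher mean, 5369 against 4908 RPM, and on the right lung has, 0.857% against 0.838%, with overlapping libraries in both.

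At each size on its own, no RP gene peak was called between the tissues either. At 50 nuclei edgeR called 0 of 91, against 1.41% of all peaks, and DESeq2 0, against 5.55%. At an unadjusted p under 0.05, 10 RP gene peaks were higher in brain and 3 in lung at 50 nuclei, where 17.1% of all peaks passed in either direction. At 200 nuclei edgeR called 0 of 91, against 2.24%, and DESeq2 0, against 4.08%, and 1 RP gene peak passed the unadjusted threshold, where 13.7% of all peaks did. That peak was at Rps14, the small-subunit gene of a deleted region in a human myelodysplastic syndrome. It had 69.3, 58.6 and 52.4 RPM in lung and 133 and 107 in brain at 200 nuclei, a log2 fold of 0.91. The groups did not overlap, but the share of all peaks that separate likewise at this size was not counted. The median log2 folds of the RP gene peaks were 0.32 at 50 nuclei and 0.29 at 200 nuclei. Those of gene-end peaks were 0.49 and 0.23, and those of all peaks 0.25 and -0.11. Without lung 50-nuclei replicate 1, 5 RP gene peaks were called at 50 nuclei (Rpl37a, Rps23, Rpl36, Rpl6 and Rpl21), where 7.7% of all peaks were. Without replicates 2 and 3 of that group, 4 were called at 200 nuclei (Rpl37a, Rpl24, Rps14 and Rpl21), where 16.6% of all peaks were, and Rpl13a was at 50 nuclei, where 4.09% were.

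Between 200 and 50 nuclei no RP gene peak was called in lung or in brain. In lung edgeR called 0 of 91 and 0.0% of all peaks, and DESeq2 0 of 91 and 0.00534% of all peaks. In brain both tools called 0 of 91 and 0.0% of all peaks. At an unadjusted p under 0.05 in lung, 5 RP gene peaks were higher at 200 nuclei and 1 at 50 nuclei, where 8.2% of all peaks passed in either direction. The lowest p was at Rps20, a small-subunit gene, with a log2 fold of 1.66 ± 0.48. It had 38.4, 32.3 and 14.6 RPM at 50 nuclei and 66.5, 79.8 and 90.7 at 200 nuclei. The lung groups did not overlap there, but the share of all peaks that separate likewise was not counted. Rpl18, of the large subunit, was also among the 5, with 78.2, 14.7 and 71.2 RPM at 50 nuclei and 107, 106 and 113 at 200 nuclei, and the rest were at Rps23, Rpl36a and Rplp2. In brain 1 RP gene peak, the narrow one of Rpl37, passed the unadjusted threshold, where 1.14% of all peaks did. The median log2 fold of 200 against 50 nuclei in lung was 0.24 over RP gene peaks, 0.30 over gene-end peaks and 0.33 over all peaks. In brain it was 0.11, 0.01 and -0.07. Without lung 50-nuclei replicate 1, 3 of the 90 RP gene peaks tested (Rps23, Rpl36 and Rpl21) were called as higher at 200 nuclei in lung, where 0.649% of all peaks were.

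Whether the effect of size differed between the tissues was tested as an interaction. EdgeR called 0 of 91 RP gene peaks and 0.0% of all peaks, and DESeq2 also 0 of 91 and 0.0%. At an unadjusted p under 0.05 there were 3 RP gene peaks, at Rps23, Rpl37 and Rplp2, where 4.15% of all peaks passed. At Rps23 a 298-bp peak had 22.7, 5.87 and 0 RPM in lung at 50 nuclei, 46.0, 29.3 and 37.4 in lung at 200 nuclei, and 46.5, 56.4, 45.1 and 34.4 in brain, so that the low values were those of lung at 50 nuclei.

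The rule left out 12 RP genes. For 9 of them, Rpl10l, Rpl17, Rpl19, Rpl22, Rpl32l, Rpl39l, Rps2, Rps25 and Rps27l, no peak centre lay within 1000 bp of a gene end of the table used. For Rpl12, Rps18 and Rpl3l the end of another gene was nearer. Of the 12, 6 had a peak within 1000 bp of a start in the promoter table. These were Rpl12 and Rps18, and Rpl19, Rpl22, Rps2 and Rps27l, whose starts the gene table and the promoter table place differently. Rps2, whose protein lies at the mRNA entry of the small subunit, had 116 ± 49.7 RPM in lung and 129 ± 28.3 in brain at such a peak (chr17:24719838-24720271). Rps18 had 90.97 ± 32.5 RPM in lung and 113 ± 23.9 in brain at a peak whose centre is 8 bp from an end of Vps52. Rpl22 had 80.3 ± 36.5 and 81.5 ± 7.72 RPM, and Rps27l, a copy of Rps27 induced by p53, had 60.4 ± 18.1 and 59.5 ± 15.2. None of these peaks was called in edgeR, and their lowest adjusted p was 0.138, at a narrow peak of Rpl12. Rpl10l and Rpl39l, copies known from the testis, had no peak by either table, and the peak near Rpl3l, a copy known from muscle, was nearer to Msrb1. At 12 member peaks, of 11 genes, an end of another protein-coding gene also lay within 1000 bp, as at Rpl7a, which shares its peak with Med22, and at Rpl9, which shares it with Lias. Their reads cannot be assigned to 1 of the genes.

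Other genes of the same system were read by the same rule. Of 25 translation genes, most of them with TOP messenger RNAs, 22 had peaks, and 0 of 35 peaks were called between the tissues, with a median log2 fold of 0.17. Eef1a1, the factor that brings aminoacyl-tRNA to the ribosome, had 183 ± 32.6 RPM in lung and 169.6 ± 10.6 in brain at its wide peak. Tpt1, whose messenger RNA is a standard TOP transcript, had 211 ± 48.3 and 205 ± 10.8 RPM. Of 26 genes of ribosome biogenesis 21 had peaks, and 0 of 26 peaks were called, with a median of 0.22. Of 78 genes of the mitochondrial ribosome 58 had peaks. Of the 78 peaks tested, 6 rose in brain and 0 in lung, which is 7.69% against the 5.76% and 6.19% given above, with a median log2 fold of 0.61. These were at Mrpl15, Mrps9, Mrpl10, Mrpl19, Mrps35 and Mrpl17. Mrps9 had 40.9 ± 13.0 RPM in lung and 88.9 ± 19.6 in brain (log2 fold 1.14 ± 0.35, edgeR adjusted p = 0.0296), and 4 of the 6 had under 2 RPM in lung.

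Marker genes of the cell types were read in the same way, as a check of the labelled tissues. Of 8 peaks at neuronal genes, 6 were higher in brain, with sums of 10.95 to 58.7 RPM in lung and 230 to 291 in brain, and 3 of 5 at oligodendrocyte genes were too. Of 7 endothelial peaks 4 were higher in lung, with sums of 188 to 389 RPM in lung and 70.2 to 119 in brain, as were 2 of 3 at genes of lung mesenchyme and the 1 at Cd74. None was called among 5 peaks of alveolar type 1, 3 of alveolar type 2 and 2 of airway genes, and the 4 astrocyte genes had no peak at a gene end. The part of the mix of cell types in the RP values was not tested.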

How the data were processed

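The deposited values are raw read counts in whole numbers, over 37513 peaks and 10 libraries. The submitters' processing notes name the build mm10 and, among other tools, MACS2 2.2.7.1, Bowtie2 2.4.5, SAMtools 1.14 and Trimmomatic 0.36, in no stated role. Not given in the sources used here are peak merging, counting, duplicate removal and the Tn5 shift. Duplicates left in could raise the spread between libraries of few nuclei, and peaks called mostly in deep libraries could favour their tissue. Neither was tested.

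The 2 mitochondrial rows were left out of levels. Levels (RPM) are counts scaled to 1000000 nuclear-peak reads per library. Peaks were placed on RefSeq gene ends of GRCm38.p6. The gene table gives no exons, so exons, introns and UTRs were not used. The promoter table gave starts and strand for 61 of the 81 RP genes. Tests used edgeR 4.0.16 in R 4.3.3 (quasi-likelihood F test, TMM, at least 10 reads over all libraries, 4 group means, Benjamini-Hochberg over 37466 peaks), with DESeq2 1.42.0 as an alternative, after the code was tested on simulated data. Log2 folds average both sizes, and intervals are 95%. Named peaks were the 6 highest, the 6 lowest, the 4 highest and 4 lowest folds, any called, and genes chosen for function. Others are said to be named after their values were seen, and a few named peaks are not reported here. The members, lists and alternatives were chosen with earlier results of these data known. Same-numbered libraries did not deviate together (median correlation 0.00139 over 13 pairs), so numbers were not used as pairs.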

Additional observations from a re-analysis of the deposited data

Results flagged for a closer look

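In 62 groups of 4 or 6 libraries of a tissue, 1 group per tissue for each named peak and for sums over all peaks, the gap between an extreme library and its nearest neighbour was examined, and 10 libraries stood apart. The cut-off flags about 1 in 20 groups only where values are normal and share 1 spread. Low counts and the pooling of both sizes do not meet this, so the number expected by chance is not known here. Of the 10, 8 lay at peaks up to 158 bp wide with few reads. In lung at 50 nuclei, Rps29 had 320 RPM in replicate 2 (next 187) and the 275-bp peak of Rplp1 had 122 RPM in replicate 3 (next 52.8). The 118-bp peak of Rpl5 had 60.2 RPM in replicate 3 (next 4.39), the 139-bp peak of Rplp0 had 38.2 RPM in replicate 2 (next 10.1), the 118-bp peak of Rplp1 had 26.4 RPM in replicate 2 (next 6.65), and Rpl15 had 5.69 RPM in replicate 1 (next 1.30). In lung at 200 nuclei, the 90-bp peak of Rpl23a had 4.39 RPM in replicate 2 (next 1.63). In brain at 50 nuclei, replicate 2 had 6.26 RPM at Rps28 (next 2.74) and 6.26 RPM at the 91-bp peak of Rpl34, where the other brain libraries held no read. In brain at 200 nuclei, the 158-bp peak of Rpl32 had 22.6 RPM in replicate 1 (next 12.9).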

How the results depend on the processing

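The count of RP gene peaks called as higher in brain, 0 of 91, became 4 with DESeq2, 1 with nuclear totals, with DESeq2 size factors or with thinned reads (Rpl21 each time), and 7 without both lung 50-nuclei replicates 2 and 3. Leaving out 1 library gave 0 to 8. The count called as higher in lung, also 0, became 3 with reads summed per gene and 1 without lung 50-nuclei replicates 2 and 3, and 0 to 1 with 1 library left out. Without those 2 replicates, 1 peak was called at 50 nuclei and 4 at 200 nuclei. With 1 library left out the count at 50 nuclei was 0 to 5 and the count between sizes in lung 0 to 3. Where a group was left with 1 library, that library was assumed to vary like the other groups. The lowest and highest counts over all peaks when 1 library was left out were 877 and 5240 higher in brain and 665 and 3240 higher in lung. Scaling by library totals, mitochondrial reads included, turned 78 peaks into calls of higher in lung (30079 over all peaks), with 63 called at 50 nuclei and 74 at 200 nuclei, and moved the median fold to -3.18 and that of all peaks to -3.34. By its construction that scaling carries the mitochondrial share of the brain libraries into each fold. It also reversed the named peaks of Rps27a (-2.70), Rps29 (-3.31), Rps28 (-2.66), Rps21 (-3.38), Rps6 (-2.98), Rplp0 (-3.23 and -2.97), Rpl32 (-3.23 and -2.38), Rpsa (-3.50), Rpl10 (-3.35) and Rps4x (-1.91). Under the other alternatives with a value per peak, 9 of the 28 named peaks changed sign at least once, none of them as a call (lowest adjusted p 0.503). Without lung 50-nuclei replicate 3, for example, the 118-bp peak of Rpl5 had 1.89. With reads summed per gene, 11 of the 49 RP genes with 1 peak went from above to below 0, none as a call. Among them were Rps21 (-0.16), Rpsa (-0.23), Rpl10 (-0.08) and Rps29 (-0.04). Summing left the counts of these genes unchanged, while the fit took its TMM factors from gene-end reads only. The median log2 fold of 0.30 became 0.41 with DESeq2, 0.0196 with reads summed per gene, 0.54 with thinned reads, and 0.19 to 0.41 with 1 library left out. For the level divided by TMM factors, the RP reads were set against total reads, mitochondrial reads included, multiplied by the TMM factor of the library. In lung this gave 1039 per 1000000 at 50 nuclei and 1162 at 200 nuclei. Rescaled by a constant common to all groups, these were 4612 and 5160. In RPM, which counts nuclear reads only, the summed level was 5024 and 4792, so that the order turned with this change of denominator. Per 1000000 reads in gene-end peaks the summed level was 8811 and 8332 in lung and 8183 and 8586 in brain at 50 and 200 nuclei. Both other filters, narrower and wider windows, any RP gene end, wider symbols, and peaks at listed starts (chosen after seeing the data) changed no count and gave medians of 0.28 to 0.33. Apart from the scaling already given, the causes were not tested.

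The replicate numbers of the labels are shared between groups, but same-numbered libraries did not deviate together (correlations from -0.0156 to 0.0366, with a median of 0.000646 for other pairs). With a replicate block the counts stayed at 0, while 970 peaks were called as higher in brain and 1072 in lung over all peaks, and the median fold was 0.32.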
